A study of Mus musculus with 9 samples.

Results

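Semaphorins, plexins and neuropilins are a ligand and receptor system that steers growing axons and migrating cells. The genes described here are all those in the count table whose mouse symbol names a semaphorin of classes 3 to 7, a vertebrate plexin or a neuropilin. There were 31 of them among 56980 gene identifiers: 20 semaphorin genes (7 secreted class 3 semaphorins and 13 membrane-bound ones of classes 4 to 7), 9 plexin genes (4 of class A and 5 of classes B, C and D) and 2 neuropilin genes. All 31 had at least 1 count in every library and passed the filter on low counts, so none was lost among the 17001 genes tested. Sema3g alone passed it only through the groups in which it is high, with no p53n library above the cut-off, so its difference from p53n is described without a test.

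The cells were lines of primary mouse oligodendrocyte progenitor cells (OPCs, the dividing glial cells that give rise to oligodendrocytes). Every line was Trp53 -/- and was kept in SATO medium with 10 ng/mL PDGF-AA, so no group had intact p53 and none went without PDGF. Polyadenylated RNA was sequenced from 3 groups of 3 libraries: p53n (Trp53 -/- OPCs whose treatment is given as control), BB-p53n DMSO (Trp53 -/- OPCs that express PDGF-BB, with DMSO as vehicle) and BB-p53n EZH2i (the PDGF-BB cells with 5 µM tazemetostat, an inhibitor of the histone H3 lysine 27 methyltransferase EZH2, for 48 hours). Below, DMSO libraries and tazemetostat libraries are those of the PDGF-BB cells. The study asked what PDGF-BB expression does in p53-null OPCs and, separately, what EZH2 inhibition does in the PDGF-BB cells. DMSO was given only to PDGF-BB cells, so vehicle and PDGF-BB cannot be told apart in the first comparison. The labels are silent on how PDGF-BB is expressed, on the number of lines and on whether replicates are separate cultures, so the tests speak only to the spread among these libraries, and that spread may be technical.

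Secreted class 3 semaphorins bind a neuropilin on the receiving cell, and the neuropilin pairs with a plexin that carries the signal inward. Sema3e is the exception, since it can bind Plexin-D1 without a neuropilin. The membrane-bound semaphorins bind plexins directly, with preferences such as Sema4d for Plexin-B1, Sema6a and Sema6d for class A plexins and Sema7a for Plexin-C1. The plexin tail acts on small GTPases and, through them, on the cytoskeleton. In the oligodendrocyte lineage Sema3a is known as a repellent of OPCs and Sema3f as an attractant, both through neuropilins.

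Total counts ran from 19471768 to 34557109 per library, and levels below are in CPM, which divides each count by its normalised library total. A count of 3 was worth 0.0888 to 0.16 CPM, depending on the library. The groups also differed in features apart from this gene family. Mitochondrial genes took 4.46% to 5.76% of the counts in p53n, 2.44% to 2.62% in the DMSO libraries and 1.34% to 1.54% in the tazemetostat libraries. Xist, the X-inactivation RNA, stood between 2777.3 and 3100.8 CPM in p53n, between 46.2 and 65.0 CPM with DMSO and between 2.82 and 17.4 CPM with tazemetostat. The Y-linked gene Ddx3y was at 0.208 to 0.715 CPM, 43.0 to 53.6 CPM and 5.86 to 13.2 CPM in the same order. The p53n and PDGF-BB cultures thus differed in their sex-chromosome transcripts, and in the first and the third comparison this difference and PDGF-BB cannot be told apart. Both transcripts were also lower with tazemetostat than with DMSO, and in the second comparison that difference and the treatment cannot be told apart either. The deleted part of Trp53 is not given in the labels, so its 6.77 to 8.33 CPM in p53n and up to 15.2 CPM in the PDGF-BB cells check nothing, and mouse Pdgfb reached no more than 0.238 CPM in any library. All 10 OPC markers listed were above 1 CPM in every group, with a summed level of 8115.1 to 8691.8 CPM, 6362.4 to 6436.8 CPM and 4899.1 to 5188.2 CPM in the 3 groups in that order, although Sox10 was at only 1.87 to 2.4 CPM in p53n against 284.5 to 317.0 CPM in BB-p53n DMSO. Gpr17 went the other way, at 1805.5 to 1966.0 CPM, 119.4 to 138.8 CPM and 51.2 to 64.3 CPM in the 3 groups. Pdgfra read 1404.1 to 1583.4 CPM, 956.7 to 995.8 CPM and 484.9 to 556.1 CPM. Of the 10 markers, 4 were called higher and 5 lower in BB-p53n DMSO than in p53n (90.0% called, beside 69.3% of all genes tested, median log2 -0.1). With tazemetostat against DMSO 5 of them were higher and 4 lower (90.0% called, beside 72.9%). Of the 8 endothelial and 8 microglial markers, cell types known for their plexins and neuropilins, the sums were 14.9 to 22.2 CPM and 1.37 to 2.87 CPM over all libraries, C1qa was at 0 throughout, and the endothelial list was led by Flt1. Markers of differentiating oligodendrocytes summed to 1887.7 to 1949.8 CPM in p53n, 463.6 to 514.1 CPM with DMSO and 599.2 to 631.4 CPM with tazemetostat, led by Bcas1. The neuronal list, led by Map2, summed to 2174.9 to 2217.2 CPM, 1920.8 to 2062.7 CPM and 746.7 to 853.5 CPM. The astrocyte list, led by Aldoc, summed to 1235.3 to 1320.9 CPM, 751.5 to 774.8 CPM and 939.7 to 1060.7 CPM. All 8 astrocyte markers were called lower in BB-p53n DMSO than in p53n, beside 34% of all genes tested (7 at least 2-fold, median log2 -3.74). With tazemetostat against DMSO 3 were higher and 2 lower (62.5% called, beside 72.9% of all genes tested, median log2 -0.23). The 9 tested markers of differentiating oligodendrocytes were all called lower in BB-p53n DMSO than in p53n as well (median log2 -2.34). With tazemetostat against DMSO 5 were higher and 1 lower (66.7% called, beside the same 72.9%). The mural and fibroblast list summed to 259.8 to 309.9 CPM, 479.8 to 535.7 CPM and 652.7 to 710.8 CPM, led by the OPC gene Cspg4. These marker sums and calls carry the trend on base composition described further on. With it removed, 1 OPC marker was higher and 9 lower with tazemetostat than with DMSO (28.7% and 29.1% of all genes were), with a median log2 of -0.46. In the neuronal list 2 were higher and 5 lower as fitted (100.0% called, median log2 -0.82). With the trend removed these were 2 and 4 (85.7% called, beside 57.8% of all genes, median log2 -0.38). In bulk RNA a smaller share of cells of a type and less RNA per cell cannot be told apart, and the part of these shifts in the results below was not tested.

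Levels of different genes were compared per kilobase of exon. Levels, sums, ranks and shares per kilobase carry the trend on base composition described further on, since it was not removed from them. Plxnb2, a receptor of class 4 semaphorins, was the most abundant of the 31 genes in every group. Its level was 46.8 ± 4.95 CPM per kilobase (mean ± SD, n = 3 here and below) in p53n, 51.4 ± 2.03 with DMSO and 98.0 ± 8.58 with tazemetostat. In p53n it was followed by Plxnb3 (35.8 ± 1.82 CPM per kilobase), Plxnb1 (23.2 ± 1.48), Sema6d (18.4 ± 1.24) and Sema6a (14.8 ± 1.2), neighbours whose ranges of mean ± SD did not overlap. In BB-p53n DMSO the next places went to Sema6a (26.3 ± 0.287 CPM per kilobase) and Plxna2 (26.0 ± 0.645), which lay within their spread of each other, and then to Sema6d (17.2 ± 0.497) and Plxnb3 (13.6 ± 0.131). In BB-p53n EZH2i the places after Plxnb2 were held by Plxnb3 (16.7 ± 1.47 CPM per kilobase), Sema5b (14.1 ± 1.89), Plxna1 (13.96 ± 0.737) and Plxna2 (13.2 ± 0.0656), each within the spread of its neighbour in this order. The neuropilins together stood at 2.86 ± 0.141, 2.88 ± 0.148 and 2.91 ± 0.202 CPM per kilobase in the 3 groups. This sum lay below each plexin but Plxna4, which was lower than it in every group, and Plxnc1, which was within its spread with tazemetostat (2.94 ± 0.222). The secreted semaphorins together stood at 7.82 ± 0.33 CPM per kilobase in p53n, 9.89 ± 0.781 with DMSO and 3.26 ± 0.664 with tazemetostat, and most of that in the first 2 groups was Sema3d.

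**Figure D1:**
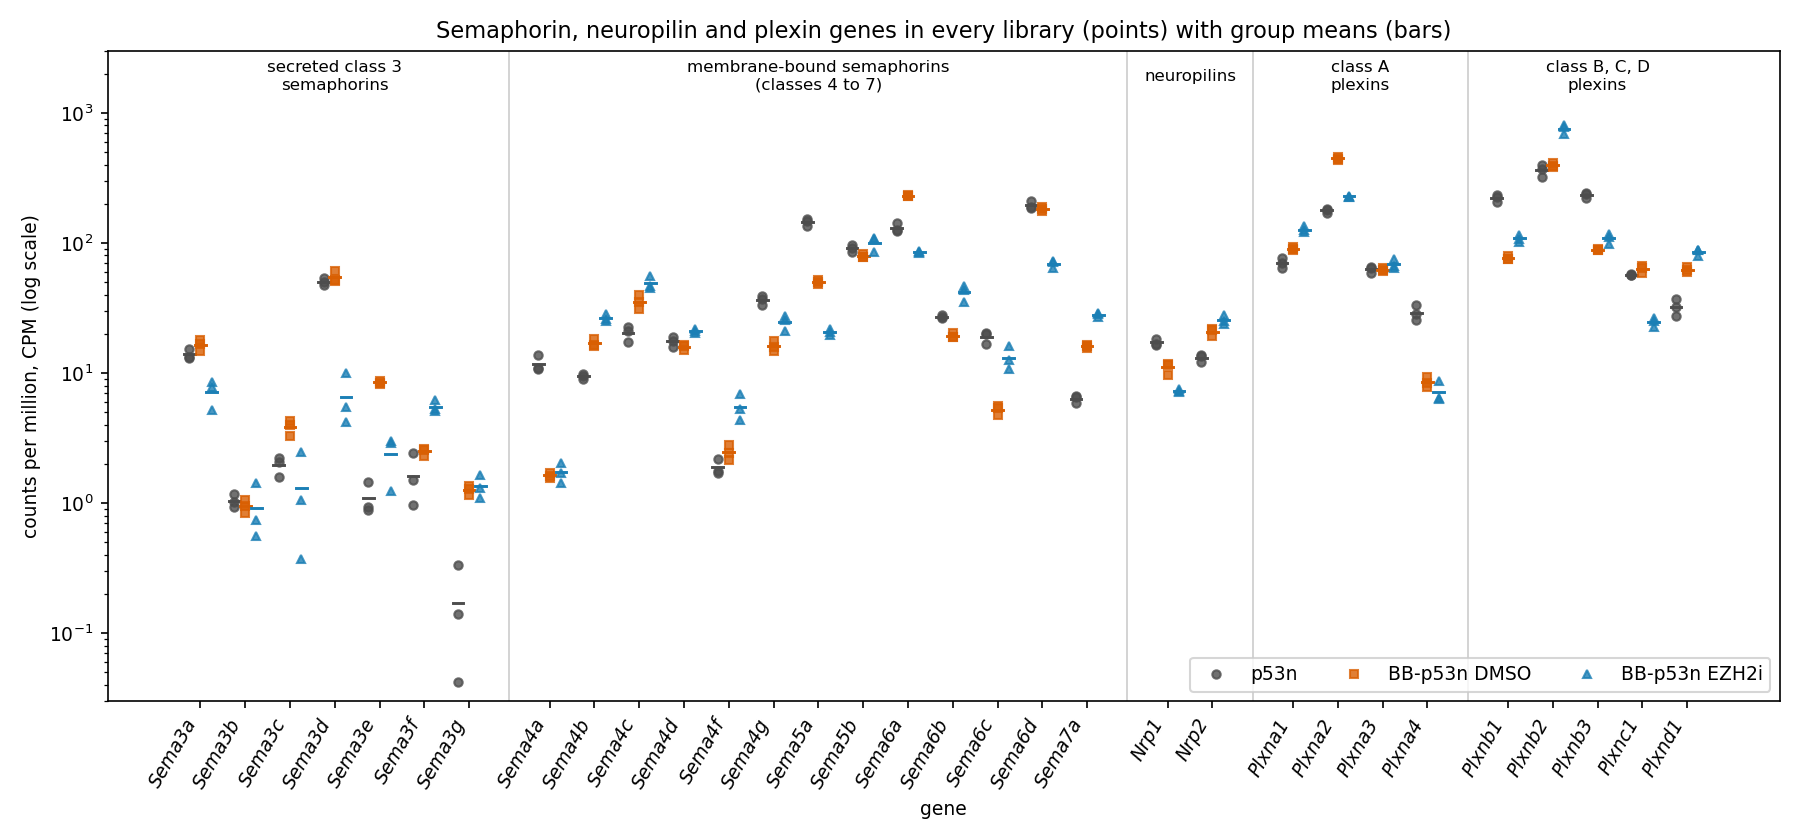
Level of each of the 31 genes in CPM (log scale) in the 9 libraries, grouped by role. Points are single libraries (circles p53n, squares BB-p53n DMSO, triangles BB-p53n EZH2i) and short bars are group means; the squares of Sema3e (8.27 to 8.72 CPM) lie above its circles (0.883 to 1.46 CPM), and the triangles of Sema3d (4.21 to 9.95 CPM) lie below its other libraries.

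The first comparison set BB-p53n DMSO against p53n. Of the 31 genes, 12 were higher in the PDGF-BB cells, 10 were lower and 9 did not pass the test, so 71.0% were called where 69.3% of all 17001 genes tested were. By direction, 35.3% of all genes were higher and 34% lower. The groups did not overlap for 22 of the 31 genes, beside 76.1% of all genes. The share of genes that changed was therefore close to that of the whole transcriptome, and the description below is of which genes moved and how far. The 12 include Sema3g, which the filter could pass only if it was higher in PDGF-BB cells. The secreted semaphorin Sema3e and the receptor Plxna2 rose, Sema4a, Sema6c and the receptors Plxna4, Plxnb1 and Plxnb3 fell, and 11 of the 31 (beside 29.8% of all genes) were called with at least a 2-fold change. The median log2 fold change of the 31 was 0.14, beside -0.02 over all genes. All adjusted p-values are Benjamini-Hochberg values of edgeR's quasi-likelihood test over all genes tested, with a threshold of 0.05, and errors of log2 fold changes are standard errors (SE).

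Among the 7 secreted semaphorins 4 were called higher, Sema3g included, and 3 did not pass the test. Sema3e, the neuropilin-independent ligand of Plexin-D1 (chr5:14075290-14306703 in GRCm39, plus strand), read 0.937, 1.46 and 0.883 CPM in p53n and 8.72, 8.38 and 8.27 CPM with PDGF-BB. The groups stood far apart, and the log2 fold change of 2.96 ± 0.25 (adjusted p = 2.3e-09), or 7.75-fold, was the highest of the 31 genes. Sema3g, a secreted semaphorin best known from endothelium, had 4, 8 and 1 counts in p53n and 43, 39 and 44 counts in BB-p53n DMSO. Its p53n levels (0.139, 0.333 and 0.0421 CPM) lay near the worth of 3 counts, so the size of the difference is uncertain.

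Sema3c, which signals through both neuropilins, read 2.22, 1.58 and 2.06 CPM in p53n and 4.24, 3.26 and 3.95 CPM in BB-p53n DMSO (log2 0.96 ± 0.36, adjusted p = 0.0313). Its groups did not overlap, but the call was lost under upper-quartile scaling (log2 0.81, adjusted p = 0.062) and when any of 4 libraries was left out (p53n replicate 2 or 3, BB-p53n DMSO replicate 1 or 3; log2 0.84, 1.08, 0.89 and 0.95, adjusted p = 0.112, 0.0538, 0.085 and 0.0807). Sema3f, the OPC attractant, read 1.49, 2.42 and 0.968 CPM against 2.57, 2.31 and 2.62 CPM (log2 0.62 ± 0.25, adjusted p = 0.0318). Here the groups overlapped, since p53n replicate 2 lay above the lowest BB-p53n DMSO library. The call of Sema3f was likewise lost under upper-quartile scaling (log2 0.48, adjusted p = 0.0928) and without p53n replicate 1 or 3 or BB-p53n DMSO replicate 1 or 3 (log2 0.64, 0.46, 0.62 and 0.60, adjusted p = 0.0608, 0.105, 0.0628 and 0.0705).

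The most abundant secreted semaphorin, Sema3d, read 47.8, 50.0 and 53.3 CPM in p53n and 60.4, 50.9 and 51.5 CPM in BB-p53n DMSO. These libraries overlapped, and the difference did not pass the test (log2 0.11 ± 0.20, adjusted p = 0.662). Sema3a, the classical growth cone collapsing factor, read 13.3, 13.1 and 15.2 CPM against 16.6, 14.6 and 17.8 CPM, also overlapping and not called (log2 0.23 ± 0.14, adjusted p = 0.128). Sema3b had a mean of 1.04 ± 0.117 CPM in p53n and 0.942 ± 0.106 CPM in BB-p53n DMSO and was not called.

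Among the 13 membrane-bound semaphorins 4 rose, 6 fell and 3 did not pass the test. Sema4a, known mainly from immune cells and retina, read 10.9, 13.7 and 10.7 CPM in p53n and 1.61, 1.57 and 1.70 CPM in BB-p53n DMSO. Every PDGF-BB library lay several-fold below every p53n library, and the log2 fold change of -2.85 ± 0.17 (adjusted p = 7.7e-12), a 7.21-fold lower level, was the lowest of the 31 genes. Sema6c, a transmembrane class 6 ligand, read 20.2, 19.98 and 16.7 CPM against 5.52, 5.36 and 4.78 CPM (log2 -1.86 ± 0.14, adjusted p = 3.0e-10). Sema5a, a class 5 semaphorin with thrombospondin repeats that is made by oligodendrocyte lineage cells, read 151.6, 147.9 and 134.7 CPM against 48.6, 50.1 and 51.4 CPM (log2 -1.53 ± 0.07, adjusted p = 1.3e-13).

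Its relative Sema5b read 91.4, 95.8 and 84.7 CPM in p53n and 77.8, 78.0 and 81.4 CPM in BB-p53n DMSO. This difference was small (log2 -0.20 ± 0.08, adjusted p = 0.0439) and the call did not hold when any of 7 libraries was left out (each p53n library, each BB-p53n DMSO library and BB-p53n EZH2i replicate 3, with log2 -0.20 to -0.11 and adjusted p from 0.0734 to 0.338) or when chromosomes X, Y and MT were left out of the scaling (log2 -0.12, adjusted p = 0.186) or low counts were not filtered (log2 -0.13, adjusted p = 0.198). Sema4g read 39.0, 36.8 and 33.3 CPM against 14.7, 17.7 and 15.8 CPM, a log2 fold change of -1.18 ± 0.11 (adjusted p = 4.2e-09). Sema6b read 26.4, 27.0 and 27.7 CPM against 18.8, 20.2 and 18.8 CPM (log2 -0.49 ± 0.10, adjusted p = 1.9e-04). In these last 2 genes every PDGF-BB library lay below every p53n library.

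Sema7a, the membrane-anchored semaphorin that binds Plexin-C1 and integrins (chr9:57847395-57870148 in GRCm39, plus strand), read 6.66, 6.54 and 5.85 CPM in p53n and 16.2, 15.5 and 16.5 CPM in BB-p53n DMSO. Its rise of 1.34 ± 0.10 on the log2 scale (adjusted p = 4.5e-10) was the largest of a membrane-bound semaphorin. Sema6a, a ligand of Plexin-A2 and Plexin-A4, read 122.5, 142.2 and 125.9 CPM against 231.0, 233.4 and 228.3 CPM (log2 0.83 ± 0.07, adjusted p = 8.2e-10). Sema4b read 9.02, 9.53 and 9.80 CPM against 16.0, 16.3 and 18.3 CPM (log2 0.84 ± 0.10, adjusted p = 4.6e-07).

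Sema4c, a ligand of Plexin-B2, read 20.9, 22.4 and 17.4 CPM in p53n and 34.8, 39.5 and 31 CPM in BB-p53n DMSO (log2 0.79 ± 0.11, adjusted p = 3.0e-06). All 4 of the risen membrane-bound semaphorins had groups that did not overlap. Sema6d, a ligand of Plexin-A1, did not pass the test at 187.0, 209.1 and 185.9 CPM against 176.7, 182.2 and 187.2 CPM (log2 -0.09 ± 0.07, adjusted p = 0.247). Sema4d, the ligand of Plexin-B1, did not pass it either at 15.9, 18.9 and 17.7 CPM against 16.1, 16.5 and 15.1 CPM (log2 -0.14 ± 0.10, adjusted p = 0.228). Sema4f read 2.19, 1.71 and 1.77 CPM against 2.81, 2.13 and 2.44 CPM and was not called (log2 0.37 ± 0.22, adjusted p = 0.141).

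The neuropilins moved in opposite directions. Nrp1, which binds Sema3a and also vascular endothelial growth factors, read 16.7, 16.5 and 18.2 CPM in p53n and 11.6, 11.8 and 9.71 CPM in BB-p53n DMSO (log2 -0.64 ± 0.11, adjusted p = 3.1e-05). Nrp2, which binds Sema3f, read 13.7, 12.2 and 13.5 CPM against 19.1, 21.9 and 21.2 CPM (log2 0.66 ± 0.10, adjusted p = 7.7e-06). The groups overlapped for neither gene. Nrp1 stood above Nrp2 per kilobase in p53n (1.75 ± 0.0942 against 1.11 ± 0.0682) and below it in BB-p53n DMSO (1.12 ± 0.115 against 1.75 ± 0.12).

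The class A plexins, the partners of neuropilins and of class 6 semaphorins, diverged as well. Plxna2 (chr1:194300526-194499177 in GRCm39, plus strand) read 180.4, 183.0 and 170.1 CPM in p53n and 436.8, 443.5 and 458.4 CPM in BB-p53n DMSO, a log2 fold change of 1.33 ± 0.06 (adjusted p = 1.0e-13). Plxna4 (chr6:32121203-32565127, minus strand) read 25.7, 33.1 and 28.6 CPM against 7.85, 8.35 and 9.35 CPM, a log2 fold change of -1.77 ± 0.13 (adjusted p = 1.1e-10). Both changes were far outside the spread of the libraries, and Plxna2 made up 7.15% of the plexin transcripts per length in p53n and 19.5% in BB-p53n DMSO. Plxna4 was the rarest plexin per kilobase in both groups.

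Plxna1 read 70.1, 77.1 and 64.5 CPM against 88.0, 89.5 and 92.7 CPM, a smaller rise (log2 0.35 ± 0.07, adjusted p = 2.8e-04). Plxna3, on chromosome X, did not pass the test at 65.0, 64.2 and 58.6 CPM against 60.3, 61.4 and 63.6 CPM (log2 -0.02 ± 0.08, adjusted p = 0.823). The counts of Plxna2 and Plxna1 carry a further uncertainty, because 15.4% and 10.7% of their exon bases are also exons of other annotated genes and fragments were counted without regard to strand. Summed per kilobase, the class A plexins stood at 28.3, 29.7 and 26.5 CPM in p53n and at 43.4, 44.1 and 45.7 CPM in BB-p53n DMSO.

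Of the 3 class B plexins, receptors of class 4 semaphorins, 2 fell and 1 did not pass the test. Plxnb1, the Sema4d receptor (chr9:108924457-108948985 in GRCm39, plus strand), read 227.2, 234.0 and 206.7 CPM in p53n and 75.3, 79.3 and 74.8 CPM in BB-p53n DMSO (log2 -1.54 ± 0.07, adjusted p = 8.9e-14). Plxnb3, a receptor of Sema5a that is typical of the oligodendrocyte lineage (chrX:72800696-72816120, plus strand), read 235.4, 242.7 and 219.6 CPM against 89.1, 88.0 and 87.4 CPM (log2 -1.40 ± 0.07, adjusted p = 5.2e-13). Both were lower in every PDGF-BB library than in any p53n library, and Plxnb3 lies on the X chromosome, whose Xist transcript also differed between these groups.

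Plxnb2 read 370.1, 394.1 and 319.3 CPM in p53n and 385.5, 414.7 and 390.1 CPM in BB-p53n DMSO, overlapping and not called (log2 0.14 ± 0.08, adjusted p = 0.136). Plxnd1, the Sema3e receptor, rose (32.0, 37.2 and 27.2 CPM against 59.3, 65.0 and 61.6 CPM; log2 0.95 ± 0.09, adjusted p = 1.9e-08), so Sema3e and its receptor were both higher in the PDGF-BB cells. Plxnc1, the Sema7a receptor, read 56.4, 58.0 and 56.2 CPM against 63.7, 59.0 and 66.8 CPM and was not called (log2 0.15 ± 0.08, adjusted p = 0.0839). Summed per kilobase, the class B plexins stood at 105.8 ± 8.24 CPM in p53n and 72.9 ± 2.25 CPM in BB-p53n DMSO.

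The trend on base composition described further on was weak in this comparison. With it removed, 13 of the 31 genes were higher and 13 lower (83.9% called, beside 72% of all genes in that fit, 32.2% higher and 39.8% lower). The calls that differed were those of Sema3f, no longer called (log2 0.51, adjusted p = 0.0595), and of 5 genes newly called: Sema3a (0.43, adjusted p = 8.4e-04) and Sema3d (0.36, adjusted p = 0.00158) higher, and Sema4d (-0.30, adjusted p = 0.0046), Sema6d (-0.26, adjusted p = 3.9e-04) and Plxna3 (-0.15, adjusted p = 0.0331) lower. The median log2 fold change of all genes was -0.11 in that fit, beside -0.02 as fitted, so the value of Plxna3 lay near that of the median gene.

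**Figure D2:**
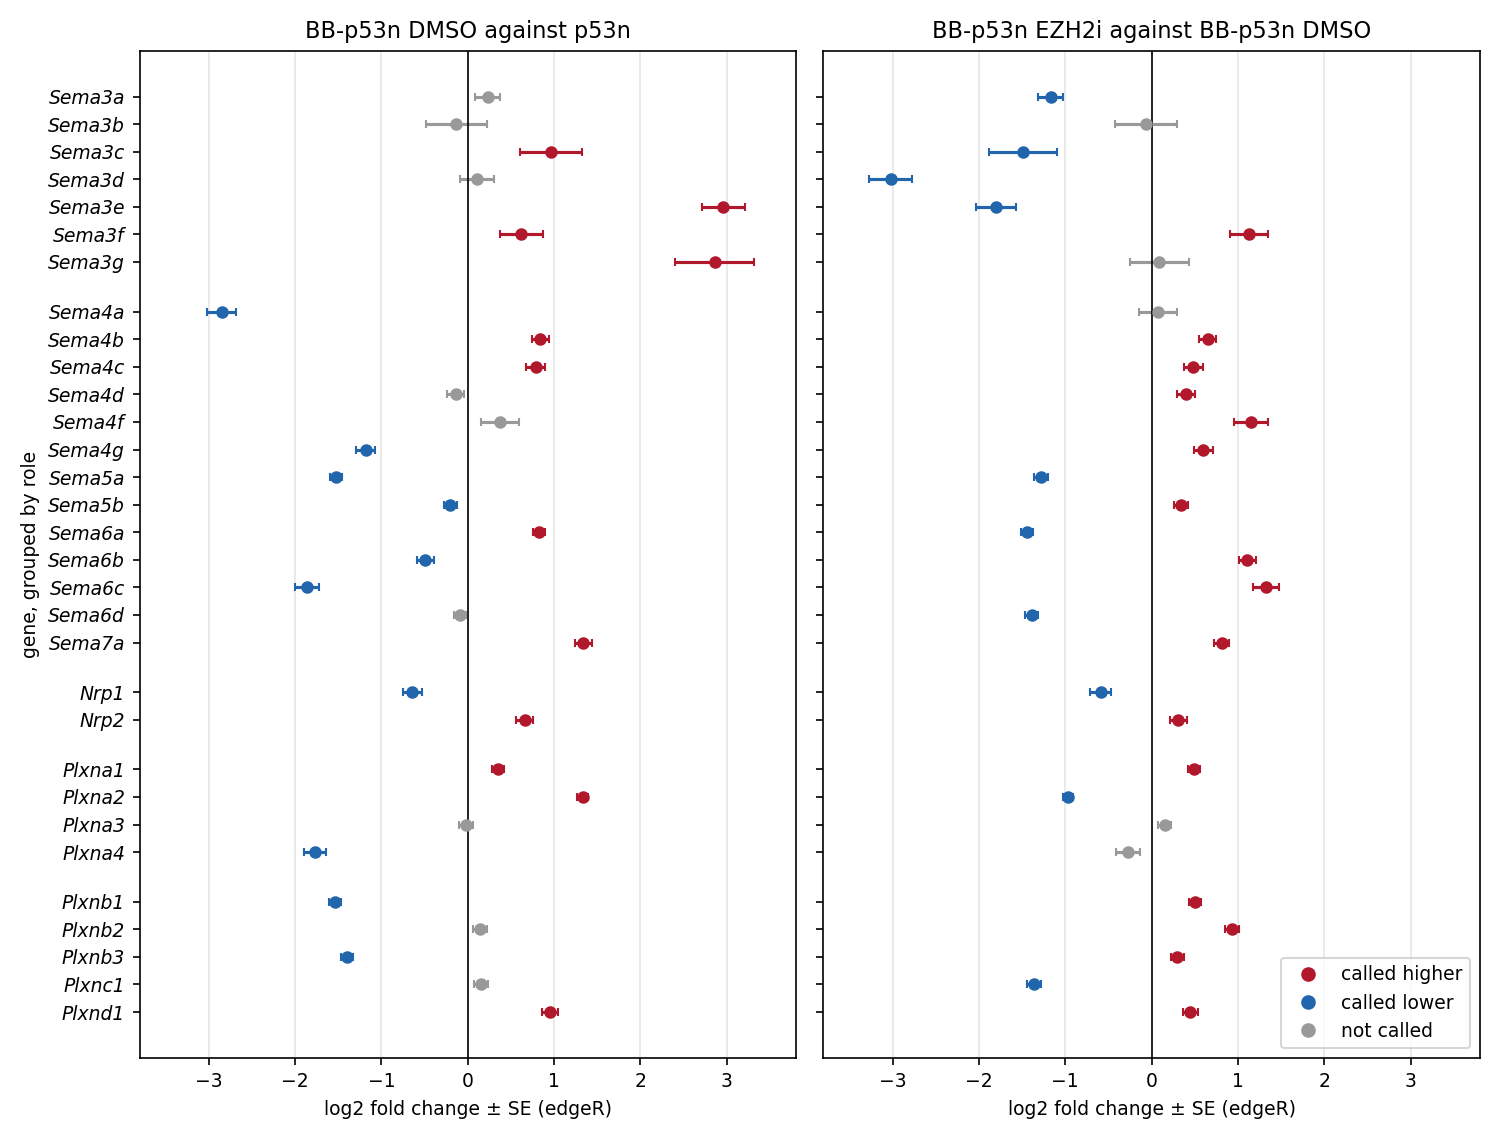
Log2 fold change with its standard error (edgeR) of each of the 31 genes, grouped by role, for BB-p53n DMSO against p53n (left) and BB-p53n EZH2i against BB-p53n DMSO (right). Red points were called higher, blue points lower and grey points not called at an adjusted p of 0.05; on the left 12 points are red and 10 blue, from Sema4a at -2.85 to Sema3e at 2.96, and on the right 16 are red and 10 blue, from Sema3d at -3.02 to Sema6c at 1.32. The panels share the BB-p53n DMSO libraries.

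The promoter windows of these genes differ in how many CG dinucleotides they hold, a sequence feature of the promoters at which the EZH2 complex is usually found. RefSeq windows of 300 bases (250 before to 50 after the start, GRCm38.p6) were used for 26 of the 31 genes, 37 windows in all. Over these 37 windows the median was 15 CG dinucleotides, and it was 7 over all 32851 windows of the table. The 6-base motif GGGCGG, searched on both strands, was in 27 of the 37 windows (73.0%) and in 35.7% of all windows. The windows of the whole table were not limited to expressed genes, and some members, such as Sema4a and Sema4d, had several windows. Whether these differences are particular to the family was therefore not tested. The window of Sema3e, which rose most, and that of Plxnb1, which fell, are printed because they lie at different points of this range, with CG in capitals and written in the direction of transcription. Sema3e (chr5:14025026-14025325, plus strand) held 11 CG, and 60.4% of all windows held no more. Plxnb1 (chr9:109095186-109095485, plus strand) held 36, and 94.4% of all windows held no more.
Sema3e promoter: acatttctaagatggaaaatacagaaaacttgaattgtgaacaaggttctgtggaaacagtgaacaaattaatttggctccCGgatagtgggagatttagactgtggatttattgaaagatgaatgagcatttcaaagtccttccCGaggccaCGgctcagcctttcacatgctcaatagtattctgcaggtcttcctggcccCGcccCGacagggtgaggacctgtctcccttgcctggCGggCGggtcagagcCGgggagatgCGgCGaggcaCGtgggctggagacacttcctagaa
Plxnb1 promoter: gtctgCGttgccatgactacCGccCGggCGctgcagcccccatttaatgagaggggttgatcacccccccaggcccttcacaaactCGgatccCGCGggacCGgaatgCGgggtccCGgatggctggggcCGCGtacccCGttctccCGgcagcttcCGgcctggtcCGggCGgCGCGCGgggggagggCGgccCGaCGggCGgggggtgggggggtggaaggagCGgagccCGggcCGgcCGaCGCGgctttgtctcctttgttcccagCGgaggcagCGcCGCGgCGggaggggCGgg

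The second comparison set BB-p53n EZH2i against BB-p53n DMSO, both in PDGF-BB cells. Of the 31 genes, 16 were higher with tazemetostat, 10 were lower and 5 did not pass the test, so 83.9% were called beside 72.9% of all genes tested, and 12 changed at least 2-fold (29.7% of all genes did). By direction, 37.3% of all genes were higher and 35.6% lower. The groups did not overlap for 27 of the 31 genes, beside 75.3% of all genes. Among ligands the abundant Sema3d, Sema6a and Sema6d fell, and Sema6b, Sema6c, Sema4f and Sema3f rose. Among receptors Plxnb2 rose and Plxnc1 and Plxna2 fell. Many of these changes followed the base composition of the transcripts, which is described first because it bears on each of them.

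All 10 of the genes that were lower had transcripts with a G+C content under 50%, from 39.2% in Sema3d to 49.7% in Plxna2, and all 16 that were higher lay between 51.1% (Nrp2) and 63.5% (Sema6b). The whole transcriptome showed the same relation. Of tested genes under 50% G+C, 58.8% were lower and 14.8% higher with tazemetostat, and of those at 50% or more, 9.14% were lower and 64.5% higher. Across 12786 genes the log2 fold change had a Spearman rho of 0.73 with G+C content and of -0.43 with exon length, as a description, since genes are not independent replicates and share the 6 libraries. In the comparison of BB-p53n DMSO with p53n these were 0.14 and -0.07. The fit was therefore repeated with a smooth trend on G+C content and exon length removed from each library, after which rho was 0.03 and -0.03. With the trend removed 8 of the 31 genes were higher and 10 lower (58.1% called, beside 57.8% of all genes in that fit, 28.7% higher and 29.1% lower), and 4 changed at least 2-fold, beside 13.8% of all genes. Of the 16 called higher 6 stayed higher (Nrp2, Plxnb1, Plxnb2, Sema4f, Sema6b and Sema6c), 8 were no longer called and 2 became lower (Plxnb3 and Sema5b). Of the 10 called lower 6 stayed lower (Plxna2, Plxnc1, Sema3d, Sema3e, Sema6a and Sema6d), 2 were no longer called (Sema3c and Sema5a) and 2 became higher (Nrp1 and Sema3a). Values with this trend removed are given below as corrected values. A trend of this kind in a single treatment group cannot be told apart from a treatment effect on genes of that composition.

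The contrast in base composition is visible in the starts of the coding sequences of Sema3d, the most G+C-poor transcript of the family and the one that fell most, and Sema3f, a G+C-rich secreted semaphorin that rose. The first 120 coding bases are printed from the GENCODE transcripts of GRCm38, with G and C in capitals. In Sema3d 38.3% of this stretch and 45.8% of the whole coding sequence is G or C, and in Sema3f 56.7% and 58.9%. The coding start does not follow the fitted direction in every secreted semaphorin. Of the others that fell, Sema3a (42.5%) and Sema3c (41.7%) have G+C-poor starts, but that of Sema3e is 60.8% G or C, above Sema3f.
Sema3d coding start: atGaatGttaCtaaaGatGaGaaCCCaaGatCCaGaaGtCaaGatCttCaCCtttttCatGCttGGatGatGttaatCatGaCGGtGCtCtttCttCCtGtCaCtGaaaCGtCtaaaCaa
Sema3f coding start: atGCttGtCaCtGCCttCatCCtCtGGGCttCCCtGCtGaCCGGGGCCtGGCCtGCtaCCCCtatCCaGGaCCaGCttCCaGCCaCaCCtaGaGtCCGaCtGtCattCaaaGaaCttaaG

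**Figure D3:**
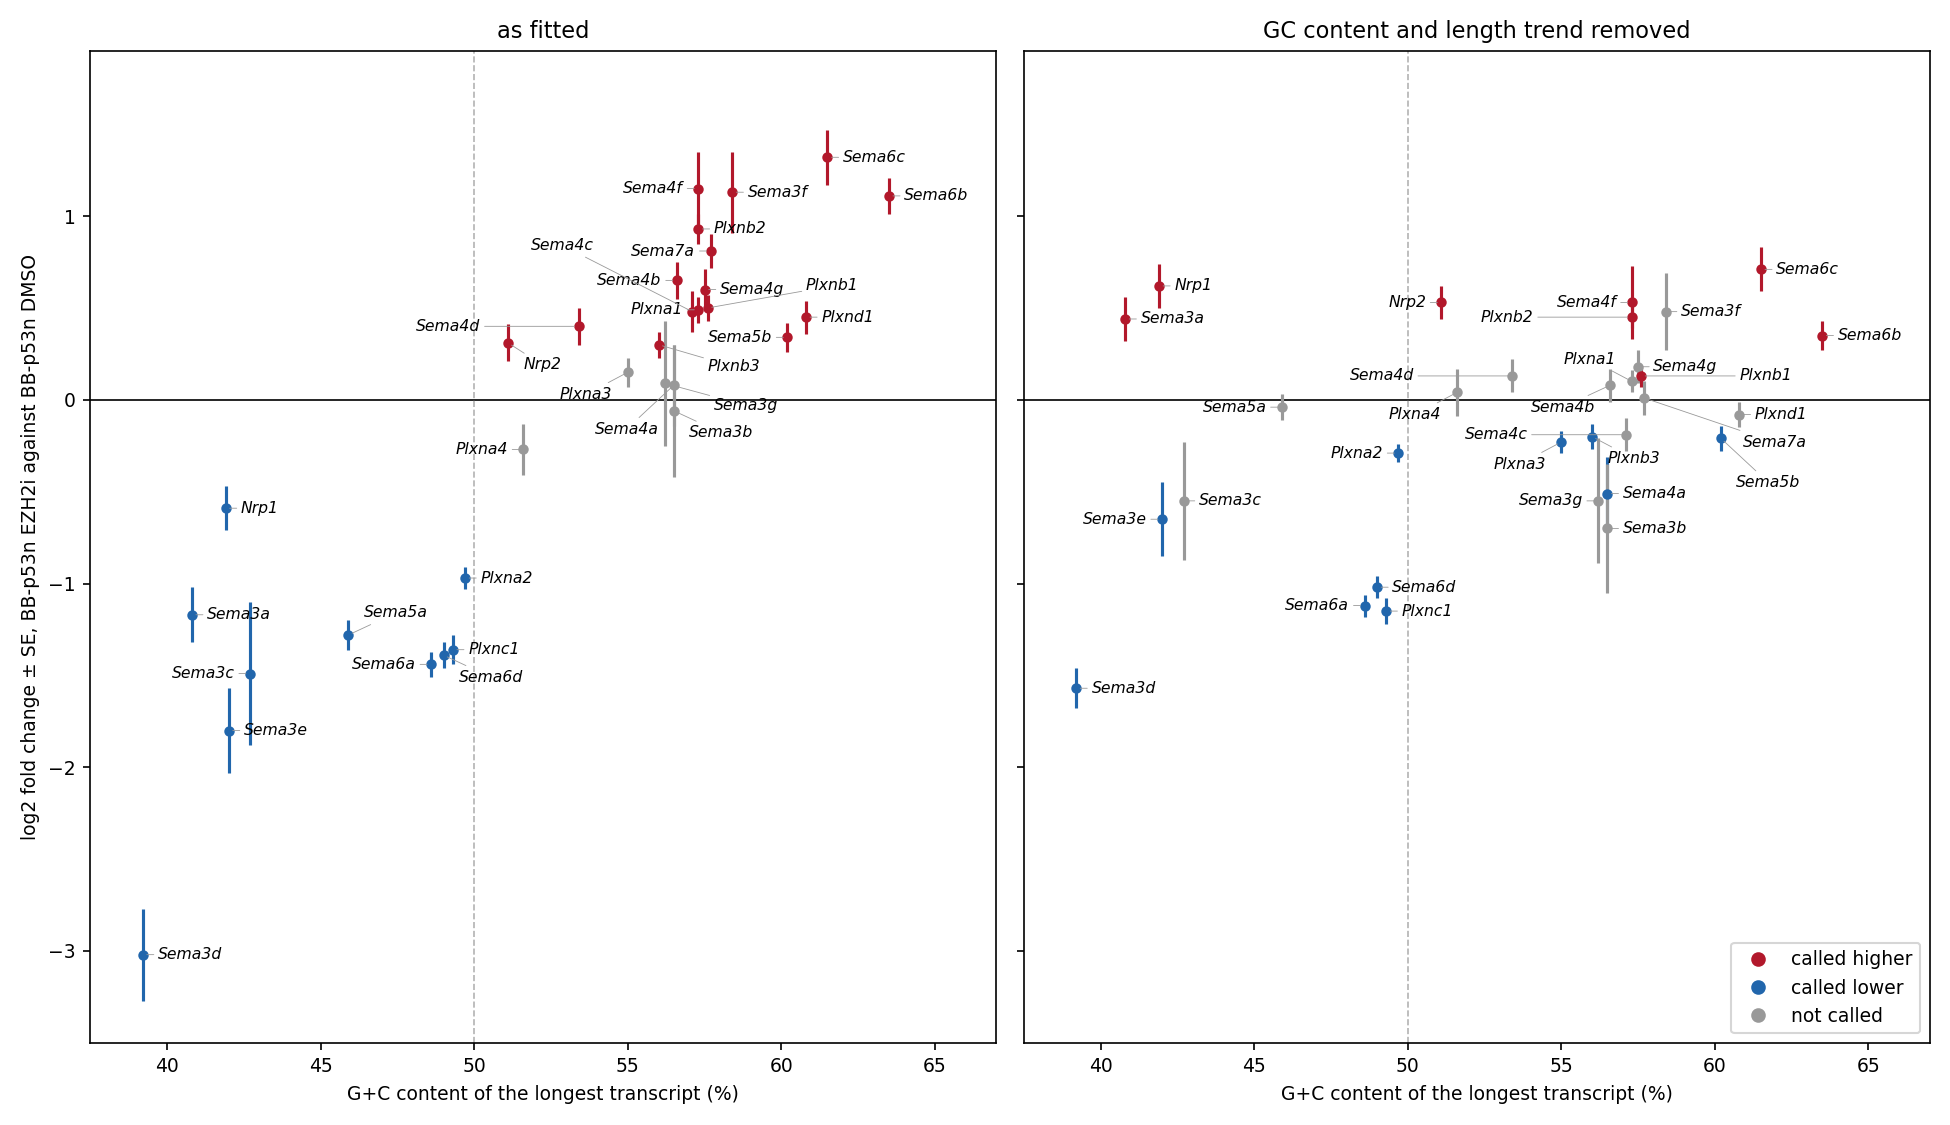
Log2 fold change with its standard error of BB-p53n EZH2i against BB-p53n DMSO for each of the 31 genes, against the G+C content of its longest transcript, as fitted (left) and with the trend on G+C content and exon length removed (right). Red points were called higher, blue points lower and grey points not called; on the left all blue points lie below 50% G+C (dashed line) and all red ones above it, and on the right Nrp1 (0.62) and Sema3a (0.44) are above 0 at the low end and Sema3d (-1.57) stays lowest.

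Of the 7 secreted semaphorins 4 fell, 1 rose and 2 did not pass the test. Sema3d (chr5:12433352-12638915 in GRCm39, plus strand) read 9.95, 4.21 and 5.42 CPM in the tazemetostat libraries, where the DMSO libraries had 54.2 ± 5.34 CPM. No library of either group came near the other, and its log2 fold change of -3.02 ± 0.25 (adjusted p = 4.7e-06), an 8.11-fold lower level, was the lowest of the 31 genes. Its corrected value was smaller but also the lowest (-1.57 ± 0.11, adjusted p = 4.4e-10). Sema3e, the ligand that was raised in the PDGF-BB cells, read 3.01, 1.23 and 2.90 CPM after tazemetostat against 8.45 ± 0.236 CPM, a log2 fold change of -1.80 ± 0.23 (adjusted p = 5.7e-07) and corrected -0.65 ± 0.20 (adjusted p = 0.00993).

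Sema3a read 8.56, 5.22 and 7.80 CPM against 16.3 ± 1.58 CPM (log2 -1.17 ± 0.15, adjusted p = 4.2e-07), but its corrected value had the opposite sign (0.44 ± 0.12, adjusted p = 0.00261). Sema3c read 2.46, 0.373 and 1.05 CPM against 3.82 ± 0.505 CPM, a log2 fold change of -1.49 ± 0.39 (adjusted p = 0.00373) whose corrected value did not pass the test (-0.55 ± 0.32, adjusted p = 0.153). The genes of Sema3d, Sema3a, Sema3e and Sema3c lie in this order within a stretch of chromosome 5, from position 12433352 to 17935266, and all 4 are G+C-poor, at 39.2% to 42.7%. In each of the 4 genes the highest tazemetostat library was replicate 1 and the lowest was replicate 2. This order was not particular to that stretch. It also held in Plxnc1 and Sema5a on other chromosomes, and not in Nrp1, Plxna2, Sema6a and Sema6d, the remaining members under 50% G+C.

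Sema3f rose, at 5.23, 5.06 and 6.14 CPM after tazemetostat against 2.50 ± 0.167 CPM (log2 1.13 ± 0.22, adjusted p = 1.1e-04), and its corrected value missed the threshold (0.48 ± 0.21, adjusted p = 0.0552). Sema3g read 1.31, 1.65 and 1.09 CPM against 1.26 ± 0.102 CPM and was not called (log2 0.09 ± 0.34, adjusted p = 0.826), nor was Sema3b at 0.909 ± 0.459 CPM against 0.942 ± 0.106 CPM (log2 -0.06 ± 0.36). Sema3f, Sema3g and Sema3b have a G+C content of 56.2% to 58.4%, above that of the 4 secreted semaphorins that fell.

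Of the 13 membrane-bound semaphorins 9 rose, 3 fell and 1 did not pass the test. Sema6a, among the most abundant members of the family in the DMSO libraries, read 85.5, 83.2 and 86.5 CPM after tazemetostat against 230.9 ± 2.52 CPM, a 2.71-fold lower level (log2 -1.44 ± 0.07, adjusted p = 5.9e-13; corrected -1.12 ± 0.06, adjusted p = 2.8e-12). Sema6d read 71.5, 64.0 and 72.4 CPM against 182.0 ± 5.25 CPM (log2 -1.39 ± 0.07, adjusted p = 1.7e-12; corrected -1.02 ± 0.06, adjusted p = 1.4e-11). Both class 6 ligands remained over 2-fold lower with the trend removed. In levels from which the trend was not removed, the share of Sema6a among semaphorin transcripts per length went from 28.2% to 12.4%. That of Sema6d went from 18.5% to 8.4%.

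The other class 6 semaphorins moved the other way. Sema6c read 10.7, 12.5 and 16.1 CPM against 5.22 ± 0.39 CPM, a rise of 1.32 ± 0.15 on the log2 scale (adjusted p = 7.5e-08; corrected 0.71 ± 0.12, adjusted p = 4.2e-05). Sema6b read 34.9, 43.4 and 46.4 CPM against 19.3 ± 0.806 CPM (log2 1.11 ± 0.10, adjusted p = 3.5e-09; corrected 0.35 ± 0.08, adjusted p = 0.0012). Both had been lower with PDGF-BB than without it, in a comparison that shares the DMSO libraries with this one.

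Sema5a fell to 21.6, 19.4 and 20.8 CPM from 50.0 ± 1.42 CPM (log2 -1.28 ± 0.08, adjusted p = 1.6e-11), but its corrected value was near 0 (-0.04 ± 0.07, adjusted p = 0.677). Its gene has 18686 bases of exon, the most of the family, and a transcript G+C content of 45.9%. Sema5b rose slightly, to 106.7, 84.5 and 108.4 CPM from 79.0 ± 2.03 CPM (log2 0.34 ± 0.08, adjusted p = 0.00123), and was lower once corrected (-0.21 ± 0.07, adjusted p = 0.0218).

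Among the class 4 semaphorins Sema4f, known as a regulator of OPC migration in the optic nerve, read 4.36, 6.87 and 5.23 CPM against 2.46 ± 0.338 CPM (log2 1.15 ± 0.20, adjusted p = 3.5e-05; corrected 0.53 ± 0.20, adjusted p = 0.0275). Sema4b rose to 25.8, 25.0 and 28.4 CPM from 16.9 ± 1.24 CPM (log2 0.65 ± 0.10, corrected 0.08 ± 0.09). Sema4g rose to 20.9, 25.4 and 27.3 CPM from 16.1 ± 1.53 CPM (log2 0.60 ± 0.11, corrected 0.18 ± 0.09). Sema4f is the only class 4 semaphorin of these whose corrected value passed the test upward.

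Sema4c rose to 46.5, 45.0 and 55.6 CPM from 35.1 ± 4.26 CPM (log2 0.48 ± 0.11, corrected -0.19 ± 0.09). Sema4d rose to 20.1, 21.7 and 21.0 CPM from 15.9 ± 0.719 CPM (log2 0.40 ± 0.10, corrected 0.13 ± 0.09). Sema7a rose to 28.9, 27.0 and 28.4 CPM from 16.1 ± 0.491 CPM (log2 0.81 ± 0.09, corrected 0.01 ± 0.09). The fitted values of Sema4b, Sema4g, Sema4c, Sema4d and Sema7a passed the test, with adjusted p between 1.7e-07 and 0.00113, and their corrected values did not, with adjusted p between 0.0691 and 0.915. Sema4a stayed low at 1.43, 1.70 and 2.05 CPM against 1.63 ± 0.0647 CPM and was not called (log2 0.08 ± 0.22, adjusted p = 0.761), though its corrected value was lower (-0.51 ± 0.20, adjusted p = 0.0388).

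The neuropilins again parted as fitted. Nrp1 read 7.53, 7.24 and 7.14 CPM after tazemetostat against 11.01 ± 1.12 CPM (log2 -0.59 ± 0.12, adjusted p = 1.6e-04), yet the corrected value was higher (0.62 ± 0.12, adjusted p = 1.3e-04), so its direction depends on how base composition is treated. Nrp2 read 27.9, 23.6 and 25.2 CPM against 20.7 ± 1.42 CPM (log2 0.31 ± 0.10, adjusted p = 0.00833; corrected 0.53 ± 0.09, adjusted p = 4.3e-05). Its fitted call was lost without BB-p53n DMSO replicate 1 (log2 0.25, adjusted p = 0.0602), with only the 2 groups fitted (log2 0.22, adjusted p = 0.06) and with no filter on low counts (log2 0.20, adjusted p = 0.123).

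Of the 9 plexins 5 rose, 2 fell and 2 did not pass the test. Plxnb2 (chr15:89039752-89064991 in GRCm39, minus strand) read 683.5, 812.7 and 773.5 CPM after tazemetostat against 396.8 ± 15.7 CPM, a 1.91-fold higher level (log2 0.93 ± 0.08, adjusted p = 2.2e-09; corrected 0.45 ± 0.06, adjusted p = 1.1e-06). It made up 38.2%, 39.6% and 37.7% of plexin transcripts per length in the DMSO libraries and 53.5%, 56.7% and 55.8% in the tazemetostat libraries. These shares come from levels with the trend still in them. Plxnc1, the Sema7a receptor, fell to 26.2, 22.6 and 24.9 CPM from 63.1 ± 3.89 CPM (log2 -1.36 ± 0.08, adjusted p = 1.2e-11), and its corrected value was also a more than 2-fold decrease (-1.15 ± 0.07, adjusted p = 2.7e-11).

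Plxna2 fell to 227.1, 228.9 and 226.9 CPM from 446.2 ± 11.1 CPM (log2 -0.97 ± 0.06, adjusted p = 2.7e-11), with a corrected value of -0.29 ± 0.05 (adjusted p = 5.6e-05). Its 3 tazemetostat libraries lay within 3 CPM of each other and between the levels of the other groups. Plxna1 rose to 124.5, 120.8 and 133.8 CPM from 90.1 ± 2.43 CPM (log2 0.49 ± 0.07, adjusted p = 5.0e-06) with a corrected value of 0.10 ± 0.06 that was not called. Plxna3 at 64.1, 66.1 and 75.0 CPM and Plxna4 at 6.30, 8.63 and 6.42 CPM were not called (log2 0.15 ± 0.08 and -0.27 ± 0.14, adjusted p = 0.0901 and 0.0931). The corrected value of Plxna3 was lower (-0.23 ± 0.06, adjusted p = 0.00368).

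Plxnb1 rose to 101.8, 115.1 and 107.8 CPM from 76.5 ± 2.51 CPM (log2 0.50 ± 0.07, adjusted p = 2.1e-06; corrected 0.13 ± 0.06, adjusted p = 0.0461). Plxnb3 rose to 110.4, 116.5 and 97.8 CPM from 88.2 ± 0.851 CPM (log2 0.30 ± 0.07, adjusted p = 9.7e-04) and was lower once corrected (-0.20 ± 0.07, adjusted p = 0.0143). Plxnd1 rose to 78.7, 87.9 and 88.3 CPM from 62.0 ± 2.84 CPM (log2 0.45 ± 0.09, adjusted p = 1.5e-04; corrected -0.08 ± 0.07, adjusted p = 0.336). Each of these 3 receptors was higher in all tazemetostat libraries than in any DMSO library, but of the 3 only Plxnb1 kept a called rise with the trend removed, which was lost when the replicate block was added as well (log2 0.13, adjusted p = 0.0565).

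**Figure D4:**
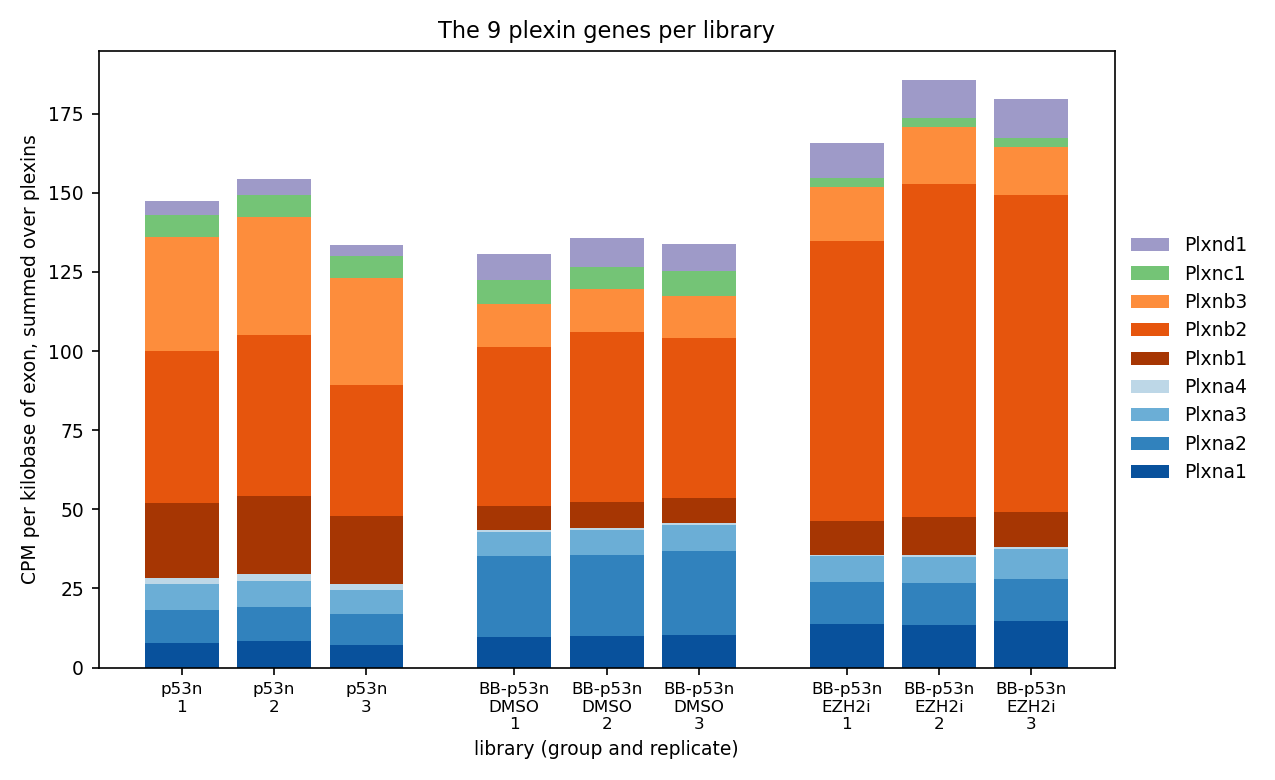
Level of the 9 plexin genes in each library, in CPM per kilobase of exon, stacked by gene (blue class A, orange class B, green Plxnc1, purple Plxnd1). The trend on G+C content and exon length was not removed from these levels. Plxnb2 is the largest segment in every library and makes up 55.3% of the plexin total on average after tazemetostat against 32.2% in p53n, and the Plxna2 segment is widest in the DMSO libraries, at 19.5% of the total.

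The third comparison, BB-p53n EZH2i against p53n, shares libraries with both others, so it adds where the inhibited PDGF-BB cells stood relative to the line without PDGF-BB. Of the 31 genes 14 were higher and 13 lower, so 87.1% were called beside 82% of all genes tested (40.3% higher and 41.7% lower), and 18 changed at least 2-fold (51% of all genes did). With the trend removed 13 were higher and 15 lower (90.3%, beside 78.7% of all genes, 35.6% higher and 43.1% lower). The median log2 fold change of all genes was then -0.13, beside -0.04 as fitted. The genes higher again include Sema3g. Apart from it, the largest rises as fitted were those of Sema7a (log2 2.14 ± 0.10, corrected 1.21 ± 0.10) and Sema3f (1.75 ± 0.24, corrected 1.00 ± 0.23). The lowest fitted values were those of Sema3d (-2.91 ± 0.25, corrected -1.21 ± 0.12), Sema5a (-2.81 ± 0.08, corrected -1.55 ± 0.07), Sema4a (-2.77 ± 0.18, corrected -3.45 ± 0.17) and Plxna4 (-2.04 ± 0.13, corrected -1.87 ± 0.12). All 6 passed the test in both fits, but their order did not hold, since the largest corrected rise was that of Sema3e (2.37) and Plxnb3 (-1.71) had a lower corrected value than Sema3d and Sema5a.

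Several genes that differed between the PDGF-BB cells and p53n stayed on the same side of p53n after tazemetostat. Sema4a was 6.84-fold lower than in p53n as fitted and 11-fold lower once corrected, and Plxna4 4.11-fold and 3.66-fold. Plxnb1 (log2 -1.04 ± 0.07, corrected -1.53 ± 0.06), Plxnb3 (-1.10 ± 0.07, corrected -1.71 ± 0.07), Sema4g (-0.57 ± 0.11, corrected -1.13 ± 0.09) and Sema6c (-0.54 ± 0.14, corrected -1.35 ± 0.11) were also lower although they had risen from their DMSO level as fitted. Sema3e was 2.23-fold higher than in p53n as fitted (log2 1.16 ± 0.29, adjusted p = 0.00112), with 1 tazemetostat library, replicate 2 at 1.23 CPM, inside the p53n range. Its corrected value was 2.37 ± 0.26 (adjusted p = 3.8e-08). Plxna2 was 1.28-fold higher (log2 0.36 ± 0.06, adjusted p = 2.0e-05), and 0.95 ± 0.05 once corrected.

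Sema6a crossed the p53n level. It was above p53n with DMSO and below it with tazemetostat (log2 -0.61 ± 0.07, adjusted p = 5.2e-08; corrected -0.47 ± 0.06, adjusted p = 2.2e-07). Sema6b crossed in the other direction as fitted (log2 0.62 ± 0.10, adjusted p = 7.3e-06), but its corrected value lay below p53n (-0.41 ± 0.08, adjusted p = 1.4e-04). Sema3a was lower than in p53n as fitted (log2 -0.93 ± 0.15) and higher once corrected (0.87 ± 0.12), and Nrp1 was lower as fitted (log2 -1.23 ± 0.12, adjusted p = 5.5e-09) and not called once corrected (0.06 ± 0.12, adjusted p = 0.662).

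Further members followed the direction they had against DMSO as fitted. Plxnb2 was 2.09-fold higher than in p53n (1.38-fold once corrected), Plxnd1 2.65-fold (1.61-fold), Sema4b 2.8-fold (1.75-fold), Sema4c 2.42-fold (1.41-fold), Sema4f 2.87-fold (1.74-fold), Nrp2 1.95-fold (2.01-fold) and Plxna1 1.79-fold (1.26-fold). Sema6d was 2.8-fold lower (2.42-fold once corrected) and Plxnc1 2.31-fold lower (2.29-fold), and these 9 genes were called in both fits. Sema4d was called higher by a small margin (log2 0.26 ± 0.10, adjusted p = 0.0196), which did not hold without p53n replicate 1 (log2 0.20, adjusted p = 0.0966), with DESeq2 (log2 0.22, adjusted p = 0.0535), under upper-quartile scaling (log2 0.17, adjusted p = 0.114), with no filter on low counts (log2 0.23, adjusted p = 0.0824) or with the trend removed (-0.17 ± 0.09). Sema5b, Plxna3, Sema3c and Sema3b were not called as fitted, and once corrected all but Sema3c were called lower: Sema5b at -0.58 ± 0.08 (adjusted p = 4.8e-07), Plxna3 at -0.38 ± 0.06 (adjusted p = 1.2e-05) and Sema3b at -0.94 ± 0.36 (adjusted p = 0.0206). The call of Sema3b rests on 58 counts over the tazemetostat libraries and 79 over p53n. Its tazemetostat replicate 3, at 1.43 CPM before correction, lay above the highest p53n library, at 1.17 CPM.

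Other genes of the pathway were taken from 3 lists: co-receptors and further receptors of semaphorins, neuropilin-binding growth factors with their receptors, and intracellular effectors of plexins. Of 59 listed genes 53 were tested. Cd72, Tgfb1 and Flt4 had only 23, 27 and 6 counts over the p53n libraries. They could pass the filter on low counts only with PDGF-BB libraries, and Flt4 only with tazemetostat libraries. Each is among the genes called higher than p53n as fitted, and Flt4 among those higher with tazemetostat than with DMSO. These calls depend on the filter and are counted without being read as results. In BB-p53n DMSO against p53n, 21 were higher and 17 lower (71.7% called, beside 69.3% of all genes). The co-receptor list had 5 of 12 higher and 3 lower, led by Itga1, an integrin chain through which Sema7a can act (log2 2.42 ± 0.08, adjusted p = 8.6e-16), and Chl1, the adhesion molecule that joins Nrp1 in Sema3a receptors (-2.10 ± 0.11, adjusted p = 1.0e-12). The growth factor list had 6 of 8 higher and 1 lower, with Vegfb (0.58 ± 0.08, adjusted p = 1.2e-06) and Pgf (-1.07 ± 0.22, adjusted p = 2.0e-04) in front. The effector list had 10 of 33 higher and 13 lower, with the Rac exchange factor Tiam1 (1.39 ± 0.07, adjusted p = 7.6e-13) and the collapsin response mediator Dpysl4 (-2.31 ± 0.09, adjusted p = 4.1e-15) in front.

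With tazemetostat 23 of the 53 pathway genes were higher and 20 lower than with DMSO (81.1% called, beside 72.9% of all genes), and 18 and 17 with the trend removed (66.0%, beside 57.8% of all genes). In the co-receptor list 5 were higher and 5 lower. Gipc1, the adaptor that binds the neuropilin tail, rose by 0.99 ± 0.08 (adjusted p = 4.8e-10) with a corrected value of 0.06, and Itga1 fell by 1.95 on the log2 scale (SE 0.08, adjusted p = 1.1e-13) with a corrected value of -0.33. In the growth factor list 4 were higher and 2 lower. Vegfb rose (0.79 ± 0.07, adjusted p = 8.8e-09, corrected -0.14), and Vegfa, the Nrp1 ligand, was lower in both fits (-0.65 ± 0.12, adjusted p = 1.6e-04, corrected -0.90). In the effector list 14 were higher and 13 lower. Dpysl4 rose (1.30 ± 0.09, adjusted p = 6.7e-11, corrected 0.80) and Gsk3b, the kinase that phosphorylates collapsin response mediators, fell (-1.71 ± 0.06, adjusted p = 2.8e-14, corrected -1.01).

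Against p53n, 25 of the 53 pathway genes were higher and 19 lower in BB-p53n EZH2i (83.0% called, beside 82% of all genes), and 17 and 22 with the trend removed (73.6%, beside 78.7% of all genes). The genes with the smallest adjusted p were Ptk7 (log2 1.71 ± 0.09, adjusted p = 1.8e-13, corrected 0.94) and Chl1 (-2.81 ± 0.12, adjusted p = 1.9e-14, corrected -0.96) among co-receptors and Vegfb (1.36 ± 0.08, adjusted p = 1.1e-12, corrected 0.15) among growth factors. Among effectors they were Limk1, the kinase that inactivates cofilin (2.37 ± 0.08, adjusted p = 7.9e-16, corrected 1.73), and Gsk3b (-1.90 ± 0.06, adjusted p = 4.2e-16, corrected -1.30).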

How the data were processed

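RNA was measured in 9 libraries of cultured OPC lines, 3 per group as the titles give them. The deposited values are raw fragment counts. Per the file headers, the authors made them with featureCounts 1.6.3 on the exons of Ensembl release 108 (GRCm39), requiring both ends and a mapping quality of 20 and setting no strand option. The submitters' processing notes also list Trimmomatic and Subread, without settings. The deposited table also gives each gene's exon length (other column), used for CPM per kilobase.

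Symbols matched 52073 of 56980 identifiers (91.4%). edgeR 4.0.16 (R 4.3.3) fitted the 9 libraries in 1 quasi-likelihood model without covariates, after filterByExpr and TMM scaling, and adjusted p-values over 17001 genes by Benjamini-Hochberg. The spread between libraries of a group gave a common biological coefficient of variation of 0.0815. The corrected fit removed from each library a natural spline trend (5 degrees of freedom each on transcript G+C content and log2 exon length, fitted over genes with a mean log2 CPM above 1) and tested 16652 genes. Alternatives were DESeq2 1.42.0, other scalings, no filter, only the groups compared, a replicate block and leaving out each library. The pipeline was also run on simulated counts with 200 changed genes. Recovery of these was scored in the first comparison only, and no trend on length was put in. That run therefore does not test the corrected changes with tazemetostat. The intervals and SDs cover these libraries only, and reads carry no molecular identifiers.

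Genes were named by rule: members with a group mean of at least 10 CPM, or called with at least a 2-fold change and a group mean of at least 1 CPM, are given in every library (all but Sema3b), and of each pathway list the called gene with the smallest adjusted p in each direction. The members and lists were chosen with earlier results of these data known.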

Additional observations from a re-analysis of the deposited data

How the results depend on the processing

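The counts of the 31 genes called in each direction stayed within 1.5 times their value under every alternative run except removal of the G+C content and length trend, where the genes higher with tazemetostat than with DMSO went from 16 to 8, and to 7 with a replicate block as well, when Plxnb1 was no longer called. Of the pathway genes, those higher in BB-p53n EZH2i than in p53n went from 25 to 15 under the replicate block with the trend removed. The replicate block alone gave the same counts of the 31 genes as no block in all 3 comparisons (12 and 10, 16 and 10, 14 and 13) and changed no call. Whether the replicate numbers pair the libraries is not settled. Libraries with the same number had correlations of their deviations between -0.23 and 0.40, not all above 0.1, and not every library was closest to its own number. Between DMSO and tazemetostat libraries these were 0.40 for replicate 1, 0.31 for replicate 2 and -0.058 for replicate 3. The cross pairs of replicates 1 and 2 had -0.38 and -0.35. DESeq2's size factors changed no call of the 31 genes, and its Wald test changed that of Sema4d against p53n alone.

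Leaving out 1 library at a time gave 10 to 15 higher and 9 to 10 lower of the 31 genes in BB-p53n DMSO against p53n, 15 to 17 and 10 to 11 with tazemetostat against DMSO, and 13 to 16 and 13 to 14 with tazemetostat against p53n. Over all genes the ranges were 5724 to 6398 higher and 4862 to 6264 lower, 5915 to 6418 and 5751 to 6425, and 6753 to 6952 and 6925 to 7379. Over the pathway genes they were 19 to 23 and 15 to 17, 21 to 23 and 18 to 22, and 24 to 25 and 19 to 20.

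Leaving out 1 library brought some calls that were not made with all 9. In the first comparison these were Plxnb2 (without p53n replicate 1 or 2, or BB-p53n EZH2i replicate 1 or 2; log2 0.15 to 0.24), Plxnc1 (without p53n replicate 1 or 3, BB-p53n DMSO replicate 2, or BB-p53n EZH2i replicate 1 or 2; log2 0.17 to 0.23) and Sema3a (without p53n replicate 3 or BB-p53n EZH2i replicate 2; log2 0.39 and 0.26). The same 3 genes were called higher with chromosomes X, Y and MT left out of the scaling (0.21, 0.22 and 0.31), with no filter (0.20, 0.22 and 0.30) and with only the 2 groups fitted (0.15, 0.16 and 0.24), and upper-quartile scaling called Sema4d (-0.28) and Sema6d (-0.24) lower. With tazemetostat against DMSO they were Plxna4 (without p53n replicate 1 or 3 or BB-p53n EZH2i replicate 2; log2 -0.34, -0.34 and -0.41), called under those 3 settings too (-0.35, -0.37 and -0.35), and Plxna3 (without BB-p53n EZH2i replicate 1; log2 0.19), called under upper-quartile scaling too (0.20). Against p53n they were Sema3c (without BB-p53n EZH2i replicate 1, -1.41), Sema5b (without BB-p53n EZH2i replicate 2, 0.27) and Plxna3 (without BB-p53n EZH2i replicate 1 or 2, 0.19 and 0.17). Some of these settings moved all genes. In the first comparison the median log2 of all genes went from -0.02 to 0.06 with chromosomes X, Y and MT left out of the scaling. It was 0.07 without p53n replicate 1 and 0.06 without p53n replicate 3, and stayed at -0.02 with only the 2 groups fitted.

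Log2 values that changed sign with the trend removed, with the value under the replicate block as well in second place, were these. In BB-p53n DMSO against p53n it was Plxnc1 (-0.041 and -0.043). With tazemetostat against DMSO they were Nrp1 (0.62 and 0.63), Sema3a (0.44 and 0.43), Plxna4 (0.038 and 0.039), Plxna3 (-0.23 for both), Plxnb3 (-0.20 for both), Plxnd1 (-0.081 for both), Sema3g (-0.55 and -0.57), Sema4a (-0.51 and -0.50), Sema4c (-0.19 and -0.18) and Sema5b (-0.21 for both). Against p53n they were Nrp1 (0.058 for both), Sema3a (0.87 for both), Sema3c (0.42 and 0.34), Plxna3 (-0.38 for both), Sema4d (-0.17 for both), Sema5b (-0.575 and -0.582) and Sema6b (-0.41 for both).

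The other changes of sign were in genes that were not called. In BB-p53n DMSO against p53n, upper-quartile scaling, which moved the median of all genes from -0.02 to -0.16, gave -0.012 for Plxnb2 and -0.039 for Sema3d. Plxna3 read 0.052 with chromosomes X, Y and MT left out of the scaling, 0.047 with no filter and -0.027 to 0.09 with 1 library left out. With tazemetostat against DMSO, Sema4a read -0.012 with those chromosomes left out, -0.028 with no filter, -0.01 with only the 2 groups fitted and -0.067 to 0.209 with 1 library left out. Sema3g read -0.014, -0.001 and -0.062 to 0.215 under the last 3 of these, and Sema3b read -0.551 to 0.217 with 1 library left out, and -0.665 to 0.102 against p53n. Depth limits the values of Sema3g, which had 13 counts over the 3 p53n libraries.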
